A study of Mus musculus with 64 samples.

Results

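The day-night change that remains in brown adipose tissue (BAT) when adipocytes lack *Nampt* was taken from 8 of the 64 samples of the study, the 4 FANKO BAT samples collected at ZT 6 and the 4 collected at ZT 18. Of the 52636 genes in the count table, 20249 passed the filter on low counts and were tested. FANKO mice carry the floxed allele NamptTM1Jtree, in which loxP sites flank exon 3 of *Nampt*, together with an Adiponectin-Cre transgene that is active in adipocytes, and the WT mice used for comparison were littermates without Cre. All were young adult males fed chow ad libitum and kept at room temperature in a light-dark cycle, with ZT 0 at lights on, so that ZT 6 is the middle of the light phase and ZT 18 the middle of the dark phase. Each time point came from different mice, and the sample labels do not tie a mouse at one time to a mouse at the other. Cells other than adipocytes keep *Nampt* in this model, and a count per gene includes reads outside the deleted exon. In whole tissue, fewer cells of a type and less RNA per cell cannot be told apart.

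BAT burns fatty acids and glucose for heat, and mice eat and move mostly in the dark. Time of day reaches the tissue in several ways. The molecular clock is a feedback loop in which CLOCK and BMAL1 (gene *Arntl*) switch on *Per* and *Cry* genes, whose products block them, and in which REV-ERBα (*Nr1d1*) and ROR proteins repress and activate *Arntl*. Feeding, glucocorticoids, sympathetic nerve activity and the daily rise of body temperature in the dark also act on the tissue, the last of these through heat shock factor 1 and the chaperone genes it switches on. NAMPT makes the precursor of NAD+ in the salvage pathway, and the question asked of these 8 samples is which of these day-night differences are still present without it in adipocytes.

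The FANKO BAT libraries held 12192850 to 14146662 counts at ZT 6 and 11577588 to 19301946 at ZT 18. Genes of the mitochondrial genome took 7.48% to 15.96% of counts at ZT 6 and 9.95% to 22.7% at ZT 18 (two-sided exact permutation test, p = 0.429). Markers of brown adipocytes were present but low: the summed level of 6 genes, among them *Ucp1* and *Cidea*, was 1622 to 3221 CPM at ZT 6 and 1301 to 3382 at ZT 18, against 4918 to 10210 in WT BAT at these times. Markers of macrophages (6 genes, 502 to 1078 CPM against 68.0 to 130.3 in WT) and T cells (5 genes, 35.8 to 108.5 CPM against 0.611 to 2.00) ran the other way, and the groups did not overlap. With edgeR at an FDR below 0.01, none of the 58 genes of 11 lists of cell type markers differed between ZT 6 and ZT 18 in FANKO BAT, and 4 were higher and 6 lower at an unadjusted p below 0.05. At that unadjusted p, 10.2% of all genes were higher and 11.2% lower. DESeq2 called none of the 58 markers either. Limma-voom called *Zic1* of the brown adipocyte list as higher, and without ZT 18 replicate 4 edgeR called *Csf1r* of the macrophage list as lower. The 10 markers of skeletal muscle summed to 4.23 to 209.2 CPM at ZT 6 and 3.86 to 445.3 at ZT 18, highest in ZT 6 replicate 1 among the ZT 6 samples and in ZT 18 replicate 2. ZT 6 replicate 1 was the lowest ZT 6 sample for *Nr1d1*, *Dbp*, *Pdk4* and *Ppara*, and ZT 18 replicate 1 the highest sample for *Hmox1*, *Ifit1* and *Rsad2*. In WT BAT, ZT 18 replicate 4 lay toward the ZT 6 level for *Pdk4*, *Ppara* and *Irs2*.

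*Nampt* was lower in FANKO than in WT BAT at both times. Its level was 124, 109, 154 and 136 CPM (read counts scaled to a common library size after TMM normalization) at ZT 6 and 186, 155, 142 and 148 CPM at ZT 18 in FANKO BAT, and the means of the 4 WT samples were 502 and 987 CPM. The groups did not overlap, with a WT to FANKO ratio of 3.85 at ZT 6 and 6.25 at ZT 18 (two-sided exact permutation tests, p = 0.0286 for each, the smallest that 4 against 4 samples allow, 0.0429 adjusted over 3 tests). In FANKO BAT the day-night difference of *Nampt* was 0.28 ± 0.13 on the log2 scale (edgeR, adjusted p = 0.218), with overlapping groups, and in WT BAT it was 0.98 ± 0.13 (adjusted p = 1.97e-07). None of the 22 genes of NAD synthesis and use passed in FANKO BAT with edgeR, DESeq2 or limma-voom at an FDR below 0.01. With edgeR 3 had an unadjusted p below 0.05, where 21.5% of all genes did.

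Between ZT 6 and ZT 18, 415 genes changed in FANKO BAT at an FDR below 0.01 (2.05% of genes tested), of which 237 were higher at ZT 18 (1.17%) and 178 lower (0.879%). The genes that rose did so by a median of 0.55 on the log2 scale, 32 of them more than 2-fold, and those that fell by a median of 0.76, 53 of them more than 2-fold. In 194 of the genes that rose and 130 of those that fell the 4 samples of one time did not overlap the 4 of the other, which was so for 3.96% and 4.21% of all genes in these directions. The call was made on these same samples and so favors genes without overlap. Set against the other FANKO BAT samples of the study, 234 of the 237 genes that rose had their highest mean of ZT 6, 10, 18 and 22 at ZT 18, and 155 of the 178 that fell had it at ZT 6. Selection on the ZT 6 and ZT 18 means itself favors such extremes. In the same fit, 1709 genes passed in WT BAT (8.44%), 950 of them higher (4.69%) and 759 lower (3.75%). These counts rest on a spread estimated over all 16 groups of the study: the 8 FANKO samples fitted alone gave 16 genes higher and 4 lower. They also rest on single samples, since 82 genes higher and 56 lower were called without ZT 18 replicate 1, and 427 and 360 without ZT 6 replicate 3, which lay nearest to the ZT 18 samples for 150 of the 237 genes that rose and 97 of the 178 that fell. For a further 54 of those that fell, ZT 6 replicate 1 was the nearest. DESeq2 called 4.73% of the genes it gave an adjusted p (2.34% higher and 2.39% lower) and limma-voom 2.32% (1.35% and 0.973%). Calls in the gene lists are those of edgeR unless another tool is named. At an unadjusted p below 0.05 in edgeR, 10.2% of all genes were higher and 11.2% lower in FANKO BAT. Scaling by library size alone moved the median of all genes from -0.02 to -0.12 on the log2 scale and gave 40 genes higher and 143 lower.

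**Figure D1:**
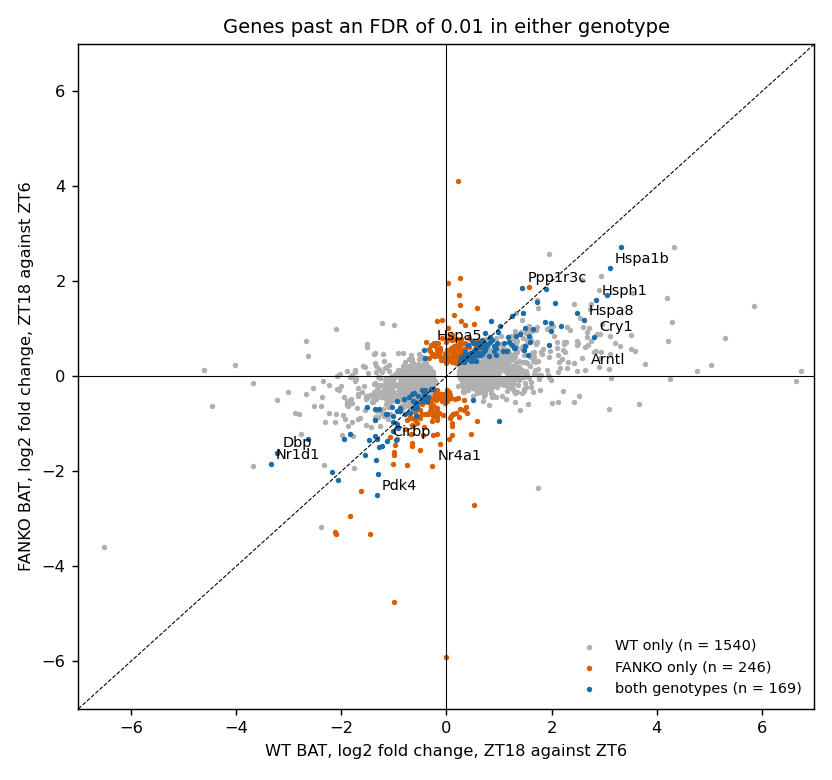
Log2 fold change of ZT18 against ZT6 in WT BAT (horizontal) and FANKO BAT (vertical) for every gene past an FDR of 0.01 in either genotype, colored by the genotype that called it, with the dashed line at equal change. Of the genes called in both, 165 changed the same way, and *Arntl*, called in WT BAT, lies near 0 on the vertical axis.

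The list with the most calls was the heat shock proteins and chaperones, which hold proteins in shape when cells warm up. Of 25 genes tested, 18 were higher at ZT 18 in FANKO BAT and none was lower, with a median change of 0.69 over the list against -0.02 over all genes; in WT BAT 17 were higher, with a median of 0.83. In 16 of the 25 genes the 2 groups of FANKO samples did not overlap. *Hspa8*, the constitutive HSP70 (GRCm38 chr9:40800984-40810087, plus strand), measured 422, 391, 458 and 356 CPM at ZT 6 and 1081, 882, 811 and 915 CPM at ZT 18. Every ZT 18 sample lay well above every ZT 6 sample, a 2.27-fold rise (log2 1.18 ± 0.16, edgeR adjusted p = 1.85e-06). *Hsph1*, an HSP110 that releases nucleotide from HSP70 (chr5:149614287-149636376, minus strand), went from 37.8, 40.5, 43.2 and 37.04 CPM to 146, 96.4, 107 and 133 CPM, a 3.05-fold rise. *Hsph1* had a log2 change of 1.61 ± 0.20 (adjusted p = 2.58e-07). The stress-inducible HSP70 genes *Hspa1b* and *Hspa1a* rose from a range of 0.858 to 4.32 CPM to one of 6.67 to 13.7 CPM and from a range of 0.726 to 2.73 CPM to one of 3.49 to 6.22 CPM (adjusted p = 2.61e-05 and 0.00329), but the pair is nearly identical in sequence and reads may be split between them. The HSP40 co-chaperone *Dnaja1* (66.1, 61.2, 72.9 and 57.97 CPM to 145, 116, 106 and 112 CPM, log2 0.89 ± 0.10, adjusted p = 2.45e-08) rose too, and *Dnaja1* overlaps *Smu1* on the opposite strand. *Dnajb1*, of the same family, also rose (23.7, 27.1, 31.5 and 21.3 CPM to 77.3, 37.96, 39.01 and 60.5 CPM, log2 1.06 ± 0.15, adjusted p = 3.21e-06). *Chordc1*, an HSP90 partner, measured 56.4 to 69.8 CPM at ZT 6 and 98.3 to 128 CPM at ZT 18. *Chordc1* had a log2 change of 0.86 ± 0.10 (adjusted p = 6.55e-08). The 7 members that did not pass had changes of 0.07 to 0.47, among them *Hspd1*, the mitochondrial HSP60, and *Hsf1* itself. Left-out samples moved the count of 18 only between 16 and 19. Scaling by library size alone gave 13, and the 8 samples alone gave 2, *Hspa8* and *Hsph1*. The call for *Hspa1a* was lost under 7 of 20 alternatives.

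**Figure D2:**
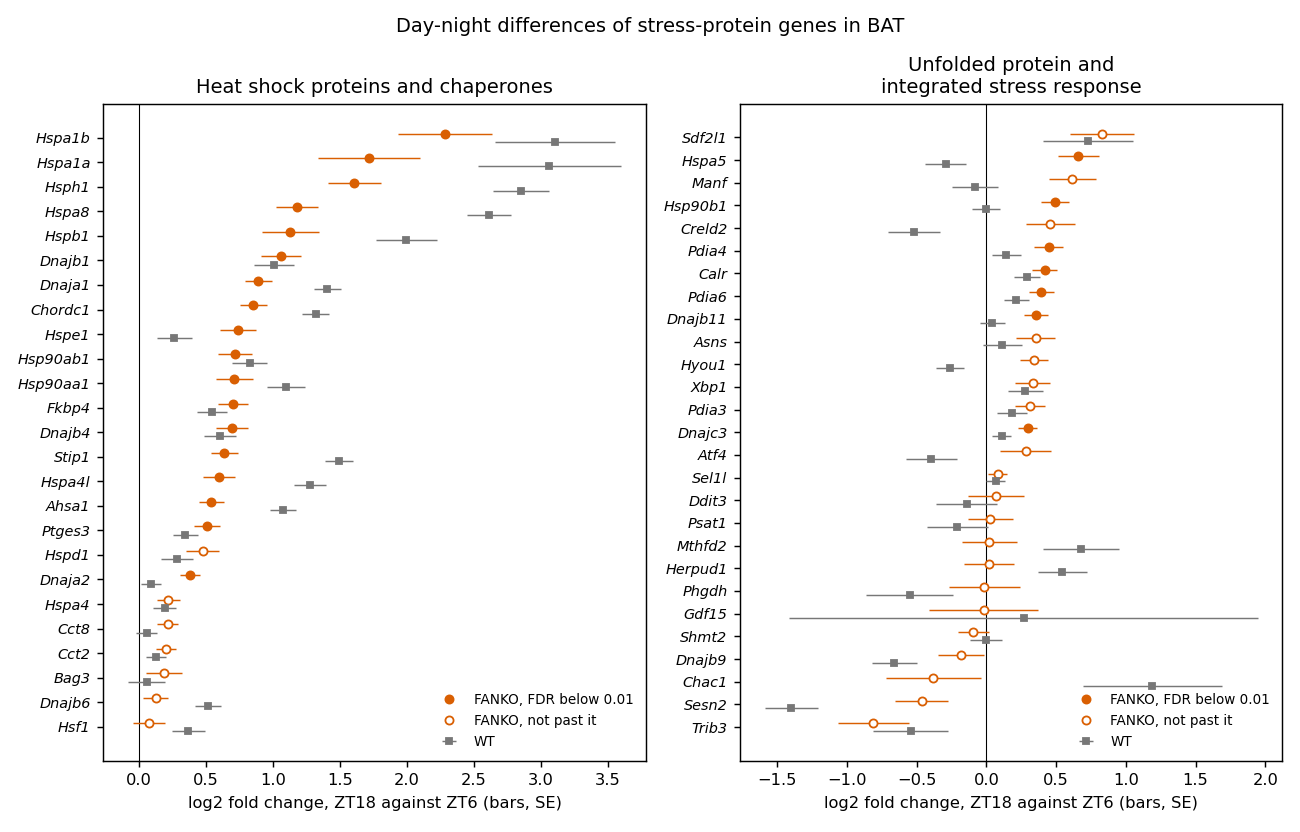
Log2 fold change of ZT18 against ZT6 with its SE for the 25 heat shock and chaperone genes (left) and the 27 genes of the unfolded protein and integrated stress response (right), in FANKO BAT (circles, filled where the FDR is below 0.01) and WT BAT (squares). All 25 chaperone values are above 0 in FANKO BAT, with 18 filled, and the WT values of *Hspa8* and *Hsph1* lie further right.

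5 of these chaperones rose by less in FANKO than in WT BAT by the test of the difference itself, which called 1.96% of all genes, 0.924% with a more positive and 1.03% with a more negative value in FANKO BAT. The difference was -1.43 ± 0.22 for *Hspa8* (adjusted p = 3.36e-05, WT change 2.61), -1.24 ± 0.28 for *Hsph1* (adjusted p = 0.00363, WT change 2.85) and -0.86 ± 0.14 for *Stip1*, which links HSP70 to HSP90 (adjusted p = 9.49e-05, FANKO change 0.64, WT change 1.495). *Ahsa1*, an activator of HSP90, and *Hspa4l*, a relative of *Hsph1*, made up the 5, with differences of -0.54 and -0.68 (adjusted p = 0.00972 and 0.00889). Both lay close to the threshold. Over all genes the test called 396, but only 28 when the 16 BAT samples at these times were fitted alone. No chaperone on the list rose more in FANKO BAT at this threshold. For *Hspa8* the ZT 6 level differed between genotypes as well as the change. The mean was 407 ± 43.9 CPM in FANKO and 184 ± 30.2 CPM (SD, n = 4) in WT BAT. The ZT 18 means were 922 ± 114 and 1120 ± 37.3 CPM.

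The cold-inducible RNA-binding proteins, whose transcripts fall when cells warm, moved the other way. *Cirbp* (chr10:80165985-80172786, plus strand) had the smallest p of all genes tested: it measured 23.7, 24.2, 20.5 and 21 CPM at ZT 6 and 7.61, 8.54, 10.9 and 8.02 CPM at ZT 18. Every ZT 6 sample lay well above every ZT 18 sample, and the change was -1.36 ± 0.15 (adjusted p = 2.45e-08). It stood beside -1.12 in WT BAT (adjusted p = 8.50e-08, difference -0.24 ± 0.21, adjusted p = 0.608). *Rbm3* also fell, from 51.5, 42.9, 59.9 and 66.2 CPM to 36.01, 41.6, 39.7 and 42.3 CPM. *Rbm3* had a log2 change of -0.47 ± 0.11 (adjusted p = 0.00735); its WT change was 0.02 (adjusted p = 0.951), and the difference between genotypes did not pass (adjusted p = 0.0612). *Cirbp* passed under all 20 alternatives that gave it a value and *Rbm3* under 10, with ZT 6 replicate 2 and ZT 18 replicate 4 the only samples whose removal left the *Rbm3* call in place.

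The proximal promoters of the chaperones are shown because heat shock factors bind repeats of the letters GAA and TTC. In the RefSeq promoter windows on GRCm38.p6 (250 bases before to 50 after a start site), 21 of the 25 genes had an entry, and 5 held GAANNTTCNNGAA on either strand: *Chordc1*, *Dnajb6*, *Hspd1*, *Hspe1* and *Hsph1*. That is 23.8% of genes, beside 0.662% of the 27025 genes with a window. Of the 5, *Chordc1*, *Hspe1* and *Hsph1* were called. *Hspe1* and *Hspd1* lie head to head and share 2 overlapping matches, and *Chordc1* holds 3 that overlap. The 3 called genes are printed 5′ to 3′ on the strand of the gene, with only the first match in capitals. Only a short stretch is given where that match spans the start of the transcript (*Chordc1*) or lies past it (*Hsph1*).
Hspe1 (chr1:55088039-55088091, plus): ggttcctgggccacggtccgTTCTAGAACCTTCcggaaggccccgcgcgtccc
Chordc1 (chr9:18292255-18292283, plus): tgcaaccgGAACGTTCGGGAAaattcctg
Hsph1 (chr5:149636280-149636308, minus): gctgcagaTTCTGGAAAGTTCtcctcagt
*Hspe1*, the HSP10 partner of HSP60, measured 33.8, 38.1, 47.8 and 36.8 CPM at ZT 6 and 79.8, 58.1, 60.1 and 62.97 CPM at ZT 18 (log2 0.74 ± 0.13, adjusted p = 0.000368), and its WT change was 0.26 (adjusted p = 0.2). The absence of these letters from the windows of the other genes says nothing of other spacings or of sites elsewhere.

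Chaperones of the endoplasmic reticulum formed another group with members that rose at ZT 18. Of 27 genes of the unfolded protein and integrated stress response, 7 were higher in FANKO BAT and none lower (median of the list 0.30), where in WT BAT none was higher and 2 were lower (median 0.04). The 7 were *Hspa5*, *Hsp90b1*, *Calr*, *Dnajc3*, *Pdia6*, *Pdia4* and *Dnajb11*, all of which fold proteins inside the reticulum. *Hspa5* encodes BiP, its HSP70 (chr2:34771970-34777547, plus strand). It measured 304, 259, 394 and 322 CPM at ZT 6 and 562, 473, 436 and 549.6 CPM at ZT 18, with no overlap (log2 0.66 ± 0.15, adjusted p = 0.00348). WT BAT went from a mean of 387 to 317 CPM (log2 -0.29 ± 0.15, adjusted p = 0.206). The difference of 0.95 ± 0.21 passed the test (adjusted p = 0.0028). *Hsp90b1*, the HSP90 of the reticulum, went from 247, 195, 250.1 and 239 CPM to 326, 305, 309 and 368 CPM (log2 0.49 ± 0.10, adjusted p = 0.0015), and its difference between genotypes did not pass (adjusted p = 0.0292). The lectin chaperone *Calr* went from a range of 202 to 255 CPM to one of 284 to 327 CPM (log2 0.42 ± 0.09, adjusted p = 0.00254) and the BiP partner *Dnajc3* from a range of 87.6 to 112 CPM to one of 121 to 131 CPM. *Dnajc3* had a log2 change of 0.30 ± 0.07 (adjusted p = 0.0043). *Hyou1*, a further HSP70 of the reticulum, missed the threshold in FANKO BAT (0.34, adjusted p = 0.0301), but its difference from WT passed (0.61 ± 0.14, adjusted p = 0.00558). The integrated stress response genes on the list, such as those for amino acid synthesis, were not called. These small changes depended on single samples and on the scaling. The count of 7 became 0 without ZT 6 replicate 2 and 1 without ZT 6 replicate 4 or ZT 18 replicate 1. It was 2 without ZT 18 replicate 4, and 0 under library size scaling or with the 8 samples alone. The list median was between 0.21 and 0.34 over these alternatives.

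5 of the 7 hold the ER stress response element in their promoter window, and they are shown because the element is rare. The letters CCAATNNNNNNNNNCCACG, on either strand, were found in 6 of the 25 genes of the list that had a window (24.0%) and in 0.137% of all genes with one. *Creld2*, which did not pass the test, is the sixth. *Hsp90b1* holds 2 copies, of which the one nearer the start is printed. The printed matches begin 65 to 162 bases before the start site.
Hspa5 (chr2:34772005-34772063, plus): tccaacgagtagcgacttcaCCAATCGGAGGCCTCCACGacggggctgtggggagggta
Hsp90b1 (chr10:86705513-86705571, minus): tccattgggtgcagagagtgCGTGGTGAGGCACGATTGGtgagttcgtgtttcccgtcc
Calr (chr8:84847055-84847113, minus): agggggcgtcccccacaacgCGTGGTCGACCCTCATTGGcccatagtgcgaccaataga
Dnajc3 (chr14:118937807-118937865, plus): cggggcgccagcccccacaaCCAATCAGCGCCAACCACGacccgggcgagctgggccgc
Pdia6 (chr12:17266471-17266529, plus): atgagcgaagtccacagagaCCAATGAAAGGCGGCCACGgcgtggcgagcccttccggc
The same element was found in 2.76% of the windows of all genes that rose in FANKO BAT, and those were these 5 genes, beside 0.157% of the 12770 tested genes with a window.

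The core clock kept part of its day-night difference. With edgeR none of the 6 activators tested was called in FANKO BAT, and 1 was higher and 1 lower at an unadjusted p below 0.05, where 2 were called higher at ZT 18 in WT BAT. Limma-voom called none and DESeq2 called *Rora* as lower. *Arntl*, which encodes BMAL1 (chr7:113207465-113314126, plus strand), measured 22.5, 12.3, 11.3 and 15.5 CPM at ZT 6 and 16.7, 15.96, 19.2 and 16.4 CPM at ZT 18 in FANKO BAT. The groups overlapped, and the change was 0.14 ± 0.24 (adjusted p = 0.789). In WT BAT it rose from 4.75, 3.54, 3.20 and 10.2 CPM to 30.1, 36.8, 34.8 and 35.04 CPM (log2 2.64 ± 0.26, adjusted p = 3.08e-11), and the difference of -2.51 ± 0.35 was past the threshold (adjusted p = 5.54e-06) under all 28 alternatives. All FANKO samples at ZT 6 lay above the WT samples of that time, and those at ZT 18 below the WT samples. *Clock* differed little in either genotype (FANKO 0.19 ± 0.09, adjusted p = 0.234, and WT 0.23 ± 0.09, adjusted p = 0.0986), and the weakly expressed *Npas2* and *Rorb* were not called (FANKO -0.81 ± 0.44 and 0.65 ± 0.51, adjusted p = 0.281 and 0.478). *Rora*, an activator of *Arntl*, was lower at ZT 18 in FANKO BAT (51.4, 67.05, 78.04 and 68.9 CPM against 43.7, 50.4, 53.3 and 40.8 CPM, log2 -0.50 ± 0.14, adjusted p = 0.0217) and higher in WT BAT (log2 0.42 ± 0.14, adjusted p = 0.0298). Neither change passed with edgeR, though that in FANKO BAT did without ZT 6 replicate 1, and their difference of -0.92 ± 0.20 passed (adjusted p = 0.00214).

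**Figure D3:**
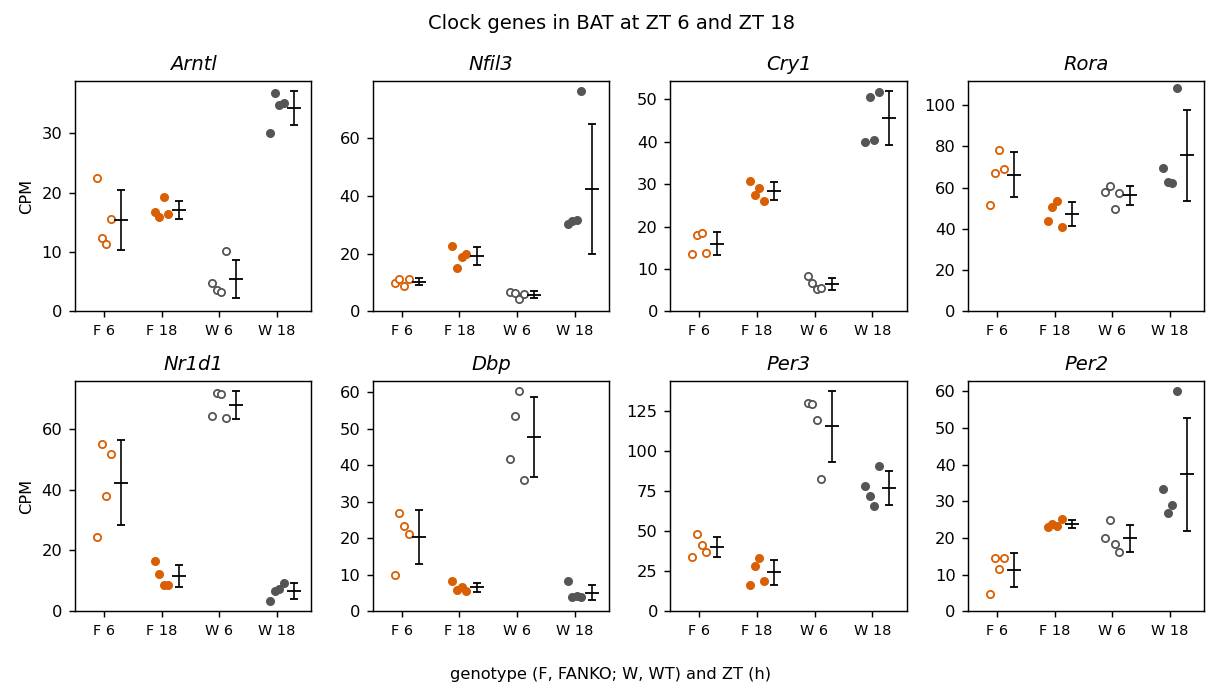
CPM of 8 clock genes in each of 4 samples of FANKO (F, orange) and WT (W, gray) BAT at ZT 6 (open) and ZT 18 (filled), with the mean and SD beside them. *Arntl* overlaps between times in FANKO BAT, and *Nr1d1* and *Dbp* fall in both genotypes from a lower ZT 6 level in FANKO BAT.

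Among 10 repressors, *Cry1* rose and *Nr1d1* and *Per3* fell in FANKO BAT. *Cry1*, a repressor of CLOCK and BMAL1 (chr10:85131700-85185064, minus strand), measured 13.5, 18.1, 18.5 and 13.7 CPM at ZT 6 and 30.7, 27.5, 29.2 and 25.9 CPM at ZT 18, and no samples overlapped. *Cry1* had a log2 change of 0.83 ± 0.14 (adjusted p = 0.000116). In WT BAT it went from 8.41, 6.66, 5.23 and 5.58 CPM to 40.01, 50.5, 40.3 and 51.7 CPM, and the difference of -1.97 ± 0.20 had one of the smallest p values in that test (adjusted p = 5.55e-09). *Nr1d1*, which encodes REV-ERBα (chr11:98767932-98775333, minus strand), measured 24.6, 54.9, 37.9 and 51.8 CPM at ZT 6 and 16.6, 12.3, 8.76 and 8.81 CPM at ZT 18. *Nr1d1* had a log2 change of -1.85 ± 0.25 (adjusted p = 1.94e-06). ZT 6 replicate 1 was the lowest of its group, nearest to the ZT 18 samples, and without it the change was -2.04 (adjusted p = 4.68e-07). The WT change was -3.34 ± 0.27 (adjusted p = 3.40e-14), and the difference of 1.498 ± 0.36 passed (adjusted p = 0.00665) but was lost under 12 of 28 alternatives, among them the fit without ZT 6 replicate 1. *Nr1d1* overlaps *Thra* on the opposite strand, and whether the counting used the strand is not given in the sources used here. *Per3* fell from 34.2, 48.2, 41.7 and 37.1 CPM to 16.4, 28.5, 33.5 and 18.8 CPM (log2 -0.74 ± 0.18, adjusted p = 0.00882), a call kept under 11 of 20 alternatives and lost without any 1 of the ZT 6 samples or ZT 18 replicate 1 or 4, beside -0.59 in WT BAT (adjusted p = 0.0164).

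The other 7 repressors did not pass with edgeR or limma-voom, while DESeq2 called 4 of them, *Per2* as higher and *Per1*, *Nr1d2* and *Ciart* as lower. *Per2* had non-overlapping groups, 4.66, 14.6, 11.6 and 14.5 CPM at ZT 6 and 22.9, 23.9, 23.2 and 25.1 CPM at ZT 18 (log2 1.08 ± 0.30, adjusted p = 0.0207), but without ZT 6 replicate 1 the adjusted p was 0.14. *Per1*, a period gene that also answers to glucocorticoids and cAMP, measured 15.5, 40.6, 21.7 and 31.9 CPM against 11.2, 11.2, 8.76 and 11.3 CPM (log2 -1.36 ± 0.38, adjusted p = 0.0222), and its WT value was 0.04 (adjusted p = 0.99, difference adjusted p = 0.123). *Nr1d2*, the REV-ERBβ gene, was at -0.82 ± 0.23 (adjusted p = 0.0222) and *Ciart*, a repressor of CLOCK and BMAL1, at -1.07 ± 0.28 (adjusted p = 0.0126); without ZT 6 replicate 1 both passed, with adjusted p of 0.00419 and 0.00215, and *Ciart* also passed without ZT 6 replicate 3 or ZT 18 replicate 1. *Bhlhe40* and *Bhlhe41*, which compete with CLOCK and BMAL1 for E-boxes, were at 0.76 ± 0.31 and 0.75 ± 0.25 (adjusted p = 0.131 and 0.0625) and *Cry2* at 0.25 ± 0.14 (adjusted p = 0.281). The E-box CACGTG, which CLOCK and BMAL1 bind, stood in the windows of 4 of the 8 repressors that had one, *Bhlhe41*, *Ciart*, *Cry1* and *Per1*, and in 8.09% of all genes with a window. The *Cry1* site is printed since it is the called gene among them.
Cry1 (chr10:85185089-85185134, minus): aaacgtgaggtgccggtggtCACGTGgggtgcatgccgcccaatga
The E-box was found in 13.8% of the genes with a window that rose and 8.80% of those that fell in FANKO BAT, on either side of the 10.9% of tested genes with a window that held it. Other letters searched were TAGGTCA (bound by ROR and REV-ERB proteins), TTATGTAA (the D-box) and TGACGTCA (the cAMP response element), found in 2.97%, 1.11% and 2.03% of all genes with a window. TAGGTCA stood in 1 of the 2 windows of *Arntl*, just past the start site.
Arntl (chr7:113207530-113207558, plus): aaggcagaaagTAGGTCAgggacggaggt

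Of 5 output factors of the clock, *Dbp* passed. *Dbp*, a PAR bZIP activator that binds D-boxes (chr7:45705088-45710203, plus strand), measured 9.95, 26.9, 23.4 and 21.2 CPM at ZT 6 and 8.32, 5.73, 6.78 and 5.70 CPM at ZT 18. *Dbp* had a log2 change of -1.61 ± 0.24 (adjusted p = 1.37e-05). ZT 6 replicate 1 lay just above the ZT 18 samples, and the change without it was -1.84 (adjusted p = 5.13e-07). In WT BAT *Dbp* fell from 41.7, 53.4, 60.2 and 36.02 CPM to 8.26, 4.05, 4.15 and 3.93 CPM, and the difference between genotypes was 1.62 ± 0.34 (adjusted p = 0.00185); *Dbp* overlaps *Sphk2* on the opposite strand. *Nfil3*, the repressor at the same D-boxes, was higher at ZT 18 in every FANKO sample (8.86 to 11.4 against 15.2 to 22.5 CPM, log2 0.90 ± 0.26) without passing the test (adjusted p = 0.0309). Its WT change was 2.86 ± 0.28 (adjusted p = 4.17e-11, difference -1.96, adjusted p = 0.000812). *Tef*, *Hlf* and *Usp2* had changes of 0.21 ± 0.19, 0.24 ± 0.18 and -0.07 ± 0.27 (adjusted p = 0.536, 0.463 and 0.916). Over the 3 clock lists, 4 of 21 genes were called in FANKO BAT and 9 in WT BAT, and the difference between genotypes passed for 7.

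Of 32 genes of glucose uptake, glycolysis and glycogen, 1 rose and 1 fell at ZT 18, and the list median was 0.12. *Pdk4*, which shuts pyruvate dehydrogenase and so spares glucose (chr6:5483351-5496309, minus strand), measured 211, 775, 1293 and 604 CPM at ZT 6 and 103, 154, 173 and 81.1 CPM at ZT 18 (log2 -2.50 ± 0.37, adjusted p = 1.18e-05). ZT 6 replicate 1 lay far below the other 3 yet above every ZT 18 sample. Without it the change was -2.81 (adjusted p = 5.29e-07). In WT BAT *Pdk4* fell as well (-1.33 ± 0.35, adjusted p = 0.00587), and the difference between genotypes did not pass (adjusted p = 0.172). *Ppp1r3c*, which targets phosphatase to glycogen and promotes its synthesis (chr19:36731731-36736653, minus strand), went the other way, from 48.6, 37.7, 69.2 and 34.1 CPM to 226, 154, 171 and 141 CPM. This was a 3.66-fold rise with no overlap (log2 1.87 ± 0.24, adjusted p = 1.13e-06; WT 1.44 ± 0.24, adjusted p = 8.23e-06). DESeq2 and limma-voom called the same pair. Of the other genes on the list, *Ppp1r3b*, another glycogen targeting subunit, was at 1.07 ± 0.36 (adjusted p = 0.0663) and hexokinase 2 (*Hk2*) at 0.56 ± 0.21 (adjusted p = 0.0957), where WT BAT had 2.02 and 1.16 (adjusted p = 6.12e-05 and 3.99e-05). The difference between genotypes passed for neither *Ppp1r3b* nor *Hk2*.

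Of 24 genes of fatty acid oxidation, 2 fell at ZT 18. *Cpt1a*, which admits fatty acids to mitochondria, measured 57.5, 53.6, 48.5 and 73.6 CPM at ZT 6 and 25.3, 41.4, 27.1 and 45.8 CPM at ZT 18. *Cpt1a* had a log2 change of -0.74 ± 0.15 (adjusted p = 0.000842). Its call was lost without ZT 6 replicate 4 and also without ZT 18 replicate 1. WT BAT held less, a mean of 22.1 and 17.7 CPM (log2 -0.32, adjusted p = 0.181). *Ppara*, the fasting-induced nuclear receptor, went from 24.6, 89.6, 118 and 78.8 CPM to 31, 24.6, 27.3 and 20.5 CPM (log2 -1.58 ± 0.34, adjusted p = 0.00222), with ZT 6 replicate 1 inside the ZT 18 range, and the call was lost without ZT 6 replicate 3. The enzymes of the oxidation spiral were not called, DESeq2 and limma-voom called the same 2 genes, and the list median was 0.13. The insulin receptor substrate *Irs2*, a gene that insulin lowers, fell from 13.3, 53.1, 21.6 and 25.1 CPM to 6.29, 9.60, 6.60 and 8.97 CPM (log2 -1.84 ± 0.45, adjusted p = 0.00794). It was the one call among 17 genes of insulin and growth factor signaling with edgeR and DESeq2, while limma-voom called none. It was kept under 9 of 20 alternatives and lost without ZT 6 replicate 2 or 4 or any 1 of the ZT 18 samples (highest adjusted p 0.0874). *Pim1* and *Pim3*, kinases induced by cytokines and growth factors, both fell. *Pim1* went from 47.02, 104, 89.9 and 71.5 CPM to 26.3, 37.7, 33.5 and 26.2 CPM (log2 -1.34 ± 0.20, adjusted p = 1.18e-05), and *Pim3* from 26.3, 89.9, 53.2 and 39.4 CPM to 15.1, 15.2, 18.5 and 13.5 CPM. *Pim3* had a log2 change of -1.75 ± 0.26 (adjusted p = 1.80e-05). Both fell in WT BAT too (-0.96 and -1.34, adjusted p = 0.000178 and 0.00012).

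**Figure D4:**
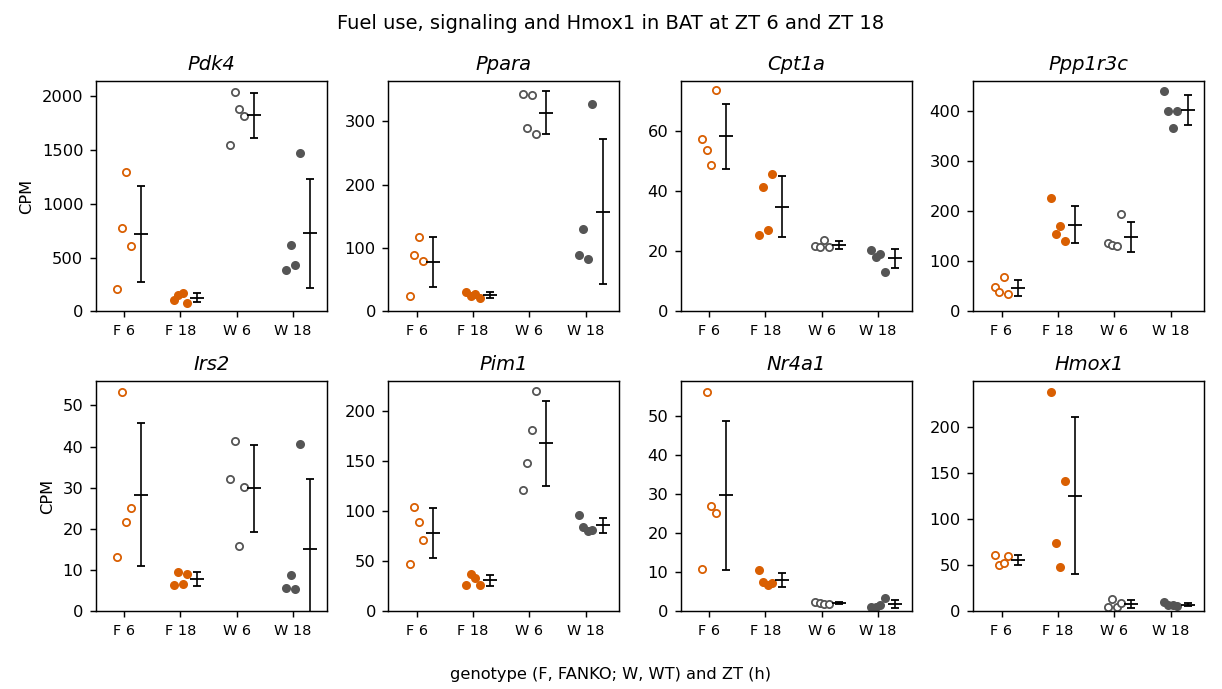
CPM of 8 genes of fuel use, signaling and stress in each of 4 samples of FANKO (F, orange) and WT (W, gray) BAT at ZT 6 (open) and ZT 18 (filled), with the mean and SD beside them. *Ppp1r3c* rises without overlap in both genotypes, and in *Pdk4* the lowest ZT 6 sample of FANKO BAT stands apart at 211 CPM.

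Among genes that hormones and nerve activity induce, few passed. *Nr4a1*, an orphan nuclear receptor induced at once by cAMP, measured 10.8, 56.2, 27.04 and 25.1 CPM at ZT 6 and 10.5, 7.48, 6.69 and 7.34 CPM at ZT 18 (log2 -1.88 ± 0.38, adjusted p = 0.00134). It was the only call among 17 immediate early genes with edgeR, DESeq2 and limma-voom, with ZT 6 replicate 1 just above the ZT 18 samples, and was lost without ZT 6 replicate 2. *Nr4a2* passed without ZT 6 replicate 1, and *Junb* without ZT 6 replicate 3 or ZT 18 replicate 4. In WT BAT *Nr4a1* measured 1.79 to 2.32 CPM at ZT 6 and 1.15 to 3.32 CPM at ZT 18. *Sgk1*, a kinase induced by glucocorticoids, fell from 37.9, 68.7, 65.7 and 43.05 CPM to 24.8, 29.4, 24.3 and 31.9 CPM (log2 -0.96 ± 0.24, adjusted p = 0.00991), close to the threshold and kept under 7 of 20 alternatives. Of the left-out samples, ZT 6 replicate 1 was the only one without which *Sgk1* still passed. The other glucocorticoid-responsive genes were not called by edgeR, and limma-voom called none of the 14. DESeq2 called *Tsc22d3* and *Mt1* as higher and *Sgk1* and *Per1* as lower. *Tsc22d3*, which encodes GILZ, had no overlap between times (32.7, 33.6, 33.8 and 34 CPM against 63.3, 74.5, 57.5 and 69.7 CPM), with a log2 change of 0.98 ± 0.26 (adjusted p = 0.0161). *Fkbp5*, a chaperone of the glucocorticoid receptor, measured 12.1, 11.7, 8.06 and 13.7 CPM against 10.1, 14.8, 14.04 and 16.1 CPM. *Fkbp5* had a log2 change of 0.26 ± 0.39 (adjusted p = 0.749). In WT BAT *Fkbp5* rose from 2.84, 4.11, 4.06 and 3.14 CPM to 29.5, 10.6, 17.3 and 134 CPM, highest in ZT 18 replicate 4, and the difference between genotypes was -3.51 ± 0.59 (adjusted p = 0.000117). *Mt1*, a metallothionein that glucocorticoids and metals induce, differed between genotypes in the other direction (1.38 ± 0.31, adjusted p = 0.00434), from 0.82 in FANKO (adjusted p = 0.0205) and -0.56 in WT BAT (adjusted p = 0.078). Of 14 genes on that list, 1 was called in FANKO BAT and 7 in WT BAT, where 2.05% and 8.44% of all genes were called. In WT BAT the list summed to 490 to 640 CPM at ZT 6 and to 570, 503, 449 and 1636 CPM at ZT 18, highest in replicate 4. How far the 7 calls rest on that sample was not tested.

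With edgeR no gene of the thermogenic program was called. Of 23 genes, 1 was higher and 3 lower at an unadjusted p below 0.05, where 10.2% of all genes were higher and 11.2% lower. The list median was 0.04. DESeq2 called *Ppargc1a* and *Ppargc1b* as lower, and so did edgeR without ZT 6 replicate 1, and limma-voom called *Zic1* as higher. *Ucp1* itself varied more within each time than between them, 945, 1241, 1651 and 802 CPM at ZT 6 and 755, 2061, 1591 and 523 CPM at ZT 18. *Ucp1* had a log2 change of 0.09 ± 0.39 (adjusted p = 0.933). *Ppargc1a*, the coactivator of mitochondrial genes, measured 21.8, 107, 87.4 and 70.6 CPM against 28.03, 57.5, 30.9 and 22.01 CPM (log2 -1.05 ± 0.27, adjusted p = 0.0136). *Dio2*, which activates thyroid hormone, measured 13.8, 64.2, 109 and 54.6 CPM against 15.8, 59.8, 27.8 and 13.99 CPM. *Dio2* had a log2 change of -1.04 ± 0.46 (adjusted p = 0.176). In both, ZT 6 replicate 1 lay below every ZT 18 sample. In WT BAT these 2 genes and *Nrg4* were the 3 that fell (-1.27 and -1.88 for the first 2, adjusted p = 0.000565 and 0.00364), and no difference between genotypes passed for the list.

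Lipid synthesis showed no day-night call in FANKO BAT with edgeR, DESeq2 or limma-voom. None of 25 genes of cholesterol synthesis passed, and none had an unadjusted p below 0.05, with a median of 0.07; in WT BAT 8 rose, with a median of 0.46, and the difference passed for 2. *Mvd*, an enzyme of the mevalonate pathway, measured 18.8, 21.6, 25.7 and 16.6 CPM at ZT 6 and 26.04, 22.9, 25.8 and 18.1 CPM at ZT 18 in FANKO BAT. Its WT means were 6.58 and 32.8 CPM, and the difference between genotypes was -2.12 ± 0.47 (adjusted p = 0.00333). The sterol carrier *Stard4* measured 13.7, 12.03, 16.3 and 13.2 CPM and 12, 13.8, 15.8 and 13.3 CPM. WT means of *Stard4* were 7.53 and 20.8 CPM, with a difference of -1.49 ± 0.24 (adjusted p = 6.67e-05). The FANKO samples of both genes lay above all WT samples of ZT 6 and below those of ZT 18 except WT ZT 18 replicate 4, which was at 8.48 CPM for *Mvd* and 12.3 CPM for *Stard4*. Of 16 genes of de novo lipogenesis none was called in FANKO BAT, with 2 lower at an unadjusted p below 0.05, and 4 rose in WT BAT. The difference between genotypes passed for none of the 16 genes. Their summed level was 90720 to 138900 CPM at ZT 6 and 73290 to 158100 CPM at ZT 18 in FANKO BAT. In WT BAT it was 135500 to 171900 CPM at ZT 6 and 215500 to 228700 CPM in 3 of the ZT 18 samples, while ZT 18 replicate 4, at 55930 CPM, lay below every ZT 6 sample.

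None of the 3 tools called any of 13 genes of triglyceride synthesis, 13 of lipolysis, 16 receptors linked to cAMP, 23 genes of cell proliferation or 19 of the matrix in FANKO BAT. At an unadjusted p below 0.05 in edgeR these lists held 1, 3, 4, 5 and 6 genes, where 21.5% of all genes passed. *Angptl4*, an inhibitor of lipoprotein lipase, was called in the fit of the 8 samples alone. *Nr4a1* was the only call of edgeR and limma-voom among 16 genes of adipocyte identity, to which DESeq2 added *Cebpa* as lower. The 3 tools also called none of 22 genes of the TCA cycle, 74 nuclear genes of the respiratory chain, 8 genes of the mitochondrial genome, 78 ribosomal protein genes and 38 proteasome genes. Without ZT 6 replicate 3, edgeR called 3 of the respiratory chain and 1 of the proteasome as higher. At an unadjusted p below 0.05, 1 gene of the TCA cycle, 16 of the respiratory chain, 4 ribosomal protein genes and 12 proteasome genes were higher, none of the mitochondrial genome was, and none of these lists had a gene lower, where 10.2% of all genes were higher and 11.2% lower.

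Interferon-stimulated genes did not pass the test between times in FANKO BAT with edgeR. Their summed level was 3331 to 5806 CPM at ZT 6 and 4436 to 10820 CPM at ZT 18, against 159 to 191 and 173 to 248 CPM in WT BAT. Of 19 genes none was called at an FDR below 0.01, 13 were higher at an unadjusted p below 0.05, and the median was 0.68; DESeq2 and limma-voom called *Stat2*. *Ifit1*, which binds foreign RNA, measured 177, 321, 442 and 234 CPM at ZT 6 and 1315, 788, 490.1 and 430.0 CPM at ZT 18 (log2 1.37 ± 0.37, adjusted p = 0.0179), against WT means of 3.19 and 4.21 CPM. *Stat2*, a subunit of the interferon response factor, went from 94.5, 95.3, 97.7 and 102 CPM to 166, 192, 152 and 119.7 CPM. *Stat2* had a log2 change of 0.69 ± 0.18 (adjusted p = 0.0111). ZT 18 replicate 1 was the highest sample for *Ifit1* and for *Rsad2*. It was also the highest for *Hmox1*, heme oxygenase 1, the only call of edgeR among 16 genes of the NRF2 and glutathione response: 60.6, 50.2, 52.03 and 59.6 CPM at ZT 6 and 238, 74.4, 47.7 and 141 CPM at ZT 18, with overlap. *Hmox1* had a log2 change of 1.18 ± 0.27 (adjusted p = 0.00493). The call for *Hmox1* was kept under 10 of 20 alternatives and lost without ZT 18 replicate 1, ZT 18 replicate 4 or any 1 of the ZT 6 samples. DESeq2 called *Hmox1* and *Gstm1*, and limma-voom neither. The WT means of *Hmox1* were 8.28 and 7.31 CPM. The macrophage markers summed to 584 to 1078 CPM at ZT 6 and 502 to 1071 CPM at ZT 18 in FANKO BAT, and their part in these levels was not tested.

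Outside the lists, several genes moved far in FANKO BAT. *P4ha1*, a collagen prolyl hydroxylase, rose from 45.9, 42.4, 53.2 and 47.4 CPM to 132, 80.96, 86.97 and 119 CPM (log2 1.15 ± 0.15, adjusted p = 1.85e-06). The centriolar gene *Hyls1* rose from a range of 6.08 to 7.20 CPM to one of 16.4 to 21.2 CPM (log2 1.54 ± 0.21, adjusted p = 1.94e-06). The zinc finger genes *Zc3h8* and *Zbtb40* rose by 1.17 ± 0.16 and 0.94 ± 0.13 (adjusted p = 1.94e-06 for both). All 4 rose in WT BAT as well, by 1.88, 2.06, 0.84 and 0.98. *Ddit4l*, an inhibitor of mTORC1, rose by 1.88 ± 0.45 (adjusted p = 0.00589), but its ZT 18 values of 17.3, 4.18, 3.20 and 7.71 CPM were spread and the adjusted p was 0.166 without ZT 18 replicate 1. Among genes that fell were *Tns2*, a focal adhesion protein (-1.09 ± 0.18, adjusted p = 0.000116), *Plpp1*, a lipid phosphate phosphatase (-0.73 ± 0.12, adjusted p = 4.93e-05) and *Ubald1* (-0.77 ± 0.12, adjusted p = 6.62e-05). So did *Lmbr1l* (-0.65 ± 0.11, adjusted p = 9.99e-05) and *Apold1*, an early gene of endothelium (3.81 to 13.4 CPM at ZT 6 and 1.74 to 2.27 CPM at ZT 18, log2 -2.02 ± 0.35, adjusted p = 0.000216). *Gm45469*, which overlaps *Ppp1r3b* on the opposite strand, rose by 1.83 ± 0.38 (adjusted p = 0.00158), and *Gm45244*, which overlaps *Acsl1* on the opposite strand, fell from a range of 11.6 to 19.4 CPM to one of 2.55 to 4.92 CPM. *Gm45244* had a log2 change of -2.18 ± 0.46 (adjusted p = 0.00186).

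Compared gene by gene with WT BAT, 165 genes changed in the same direction in both genotypes, which is 39.8% of the FANKO calls and 9.66% of the WT calls. In these the median size was 0.65 in FANKO and 0.80 in WT BAT, and 109 of them changed by less in FANKO BAT, 16 of them past the threshold for the difference. The 2 contrasts share no samples, but both were fitted with 1 spread. A further 246 genes passed in FANKO BAT only, and the difference from WT passed for 28 of these. The WT value of all 28 had the opposite sign, but none was called in WT BAT. In size these WT values ran from 0.01 ± 0.09 (*Rad54l2*) to 0.47 ± 0.29 (*Bach2*), so a reversed change in WT BAT was not shown. For the remainder of the 246 a difference between genotypes was not shown. Of the 1540 genes called in WT BAT only, the difference passed for 300. The 4 genes called in opposite directions were *Trmt10c*, which modifies mitochondrial tRNA, and *Nifk*, a nucleolar protein, both higher at ZT 18 in FANKO BAT (0.56 and 0.39) and lower in WT BAT (-0.42 and -0.42). *Ankrd44* and the lipid droplet protein gene *Hilpda* were lower in FANKO BAT (-0.50 and -0.94) and higher in WT BAT (0.51 and 0.99). In FANKO BAT the adjusted p was 0.00237 for *Trmt10c*, 0.00866 for *Nifk*, 0.00394 for *Ankrd44* and 0.0044 for *Hilpda*. The FANKO samples of the 2 times overlapped for each of these genes except *Nifk*.

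The 5 genes with the smallest p for a difference between genotypes in each direction, at a mean log2 CPM of at least 1, changed in WT BAT and, *Cry1* aside, did not pass in FANKO BAT. Beside *Cry1* and *Arntl*, these were *Klf13*, a zinc finger factor (-0.26 in FANKO and 1.47 in WT BAT, adjusted p of the difference 1.78e-07), *Svil*, which binds actin (-0.30 and 1.28, 5.22e-08), and *Mgea5*, which removes O-GlcNAc from proteins (-0.22 and 0.82, 2.86e-08). In the other direction stood *Fbxl6* (0.04 and -0.95, 2.86e-08), the autophagy protease *Atg4d*, which overlaps *Kri1* on the opposite strand (0.14 and -0.80, 2.77e-06), *Ubtf*, which drives ribosomal RNA genes (-0.32 and -1.27, 3.30e-06), *Tmem120a* (0.23 and -1.34, 2.00e-05) and *Ftsj3*, a nucleolar methyltransferase (0.28 and -0.64, 2.06e-05). The difference passed for each of them under all 28 alternatives. *Fbxl6* shows the pattern most plainly: 11.4, 11.03, 11.2 and 11.1 CPM at ZT 6 and 12.5, 10.2, 11.97 and 11.2 CPM at ZT 18 in FANKO BAT, and 33.8, 29.3, 30.8 and 32.97 CPM and 16.8, 16.3, 16.4 and 16.3 CPM in WT BAT.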

How the data were processed

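RNA was measured by stranded total RNA sequencing in brown and epididymal white fat of FANKO mice and their WT littermates at 4 time points, with 4 mice in each of 16 groups. The authors deposited whole-number counts per gene, made with STAR 2.5.3a on GRCm38.p5 and featureCounts 1.5.3; FastQC 0.11.5 and MultiQC 1.2 stand in the submitters' processing notes. Strand and multimapping options of the counting are not given in the sources used here, which bears on overlapping genes and near-identical copies. No column of another series was present (0 columns).

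All 64 samples were fitted together with edgeR 4.0.16 in R 4.3.3 (filterByExpr with a minimum count of 10, TMM scaling, 16 group means, glmQLFit and glmQLFTest), and contrasts were ZT 18 minus ZT 6 in FANKO BAT, the same in WT BAT, and the difference of both. P-values were adjusted by Benjamini-Hochberg over 20249 genes and called at an FDR below 0.01. Errors of log2 changes are SE, and errors of CPM are SD with n = 4. An adjusted p with no tool named beside it is from this edgeR fit. Single values were compared by two-sided exact permutation tests, which for 4 against 4 samples cannot go below p = 0.0286. The code was tested on simulated data. Alternatives were DESeq2 1.42.0, limma-voom (limma 3.58.1), other scalings and filters, fewer samples, a replicate block, a covariate and each sample left out.

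Gene symbols and positions came from GENCODE M21 on GRCm38 (52403 IDs matched), and promoters from RefSeq on GRCm38.p6. Members and gene lists were chosen with earlier results of these data known. Named genes were *Nampt*, the clock genes, the 10 smallest p values and the 5 largest changes in each direction among called genes without overlap and with a mean log2 CPM of at least 1, up to 4 genes of each list by p, and the 5 smallest p values of the difference in each direction. *Stip1*, *Ahsa1*, *Hspa4l*, *Hspe1*, *Hyou1*, *Fkbp5*, *Nifk*, *Trmt10c*, *Ankrd44*, *Hilpda*, *Mvd*, *Stard4* and *Ucp1*, and other members named only as part of a count, were chosen after their values were seen. 1 clock gene that the rule names is counted but not reported here.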

Additional observations from a re-analysis of the deposited data

Results flagged for a closer look

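The day-night difference differed between FANKO and WT BAT, by edgeR's test at an FDR below 0.01, for 31 of 154 genes examined. Of these, 18 had a more negative and 13 a more positive value in FANKO BAT. The same test called 1.96% of all genes. Many of the 31 were named for this difference or after their values were seen, so the count and its split reflect that choice. FANKO minus WT differences on the log2 scale were -2.51 for *Arntl*, -1.97 for *Cry1*, -1.96 for *Nfil3*, -0.92 for *Rora*, 1.498 for *Nr1d1* and 1.62 for *Dbp* among clock genes. Among cytosolic chaperones they were -1.43 for *Hspa8*, -1.24 for *Hsph1*, -0.86 for *Stip1*, -0.54 for *Ahsa1* and -0.68 for *Hspa4l*, and in the reticulum 0.95 for *Hspa5* and 0.61 for *Hyou1*. Genes that hormones or sterols govern had -3.51 for *Fkbp5*, 1.38 for *Mt1*, -0.79 for *Foxo3*, -2.12 for *Mvd*, -1.49 for *Stard4* and 1.08 for *Gpat4*. The others were -1.74 for *Klf13*, -1.58 for *Svil*, -1.04 for *Mgea5*, -1.93 for *Hilpda*, -1.01 for *Ankrd44*, 0.95 for *Ubtf*, 0.92 for *Ftsj3*, 0.94 for *Atg4d*, 1.57 for *Tmem120a*, 0.99 for *Fbxl6*, 0.98 for *Trmt10c* and 0.80 for *Nifk*.

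A single sample lay far from the other 3 of its group by Dixon's criterion in 15 of 308 combinations of gene and group (4.87%), and chance gives about 1 in 20. In FANKO BAT at ZT 6 these were *Gm45244* at 11.6 CPM and *mt-Nd4* at 615 CPM in replicate 1, both low, *Zc3h8* at 4.61 CPM in replicate 2, low, *Psmb1* at 99.5 CPM and *Trmt10c* at 27.0 CPM in replicate 3, both high, and *Rps26* at 47.5 CPM in replicate 4, high. At ZT 18 they were, in replicate 1, *Ciart* at 2.74 CPM, *Adipoq* at 531 CPM, *Psmb1* at 122 CPM and *Trmt10c* at 32.1 CPM, all high. *Rorb* at 1.43 CPM in replicate 2 and *mt-Cytb* at 4164 CPM in replicate 3 were high, *Per1* at 8.76 CPM in replicate 3 and *Apold1* at 1.74 CPM in replicate 4 were low, and *Angptl4* at 66.0 CPM in replicate 4 was high.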

How the results depend on the processing

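Direction held in the alternatives run for the single genes followed there, except *Usp2* (0.063 with limma-voom, and -0.31 to 0.17 with 1 sample left out) and *Hlf* (-0.026 to 0.40 with 1 sample left out), neither of them called. Counts moved more, and the cause was not tested. At an FDR below 0.05, 609 genes were higher and 575 lower in FANKO BAT, 1606 and 1331 in WT BAT, 1017 differed between genotypes, 402 changed alike in both and 4 interferon genes were higher. DESeq2 gave 324 lower, 608 differing and 1 interferon gene, and limma-voom 1 interferon gene. Library size alone gave 40 higher beside 143 lower, 409 higher in WT BAT, 153 differing, 90 alike and 0 genes of the unfolded protein list. Without a filter, 117 were lower, 247 differed and 4 of that list were called. The 8 FANKO samples alone gave 16 higher, 4 lower, 2 chaperones and 0 of the unfolded protein list, and the 16 BAT samples at these times 433 higher and 357 lower in WT BAT and 28 differing. The 32 BAT samples gave 128 higher, 86 lower, 3 of the unfolded protein list, 2 interferon genes, 197 differing and 95 alike. With 1 sample left out, FANKO BAT had 82 to 427 higher and 56 to 360 lower genes, WT BAT 728 to 870 and 554 to 689, and 224 to 573 differed; chaperones numbered 16 to 19, the unfolded protein list 0 to 7, interferon genes 0 to 2 and cholesterol genes 0. Besides the extremes, 105 genes were higher without ZT 6 replicate 1, 123 higher and 100 lower without replicate 2, 98 and 87 without replicate 4, and 115 lower without ZT 18 replicate 3. Same-numbered samples correlated at -0.157, 0.018, 0.209 and 0.310 in their deviations, so the numbers were not taken to pair the mice; a replicate block gave 513 calls, 394 of them shared with the 415, and 1 interferon gene. With the share of the mitochondrial genome as covariate, 556 genes were called.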
